A study of Mus musculus with 192 samples.

Results

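The 10 genes described here encode the enzymes that carry glucose 6-phosphate through glycolysis to lactate, 1 gene per step, in single mouse bone marrow cells. They are Gpi1, Pfkl, Aldoa, Tpi1, Gapdh, Pgk1, Pgam1, Eno1, Pkm and Ldha, chosen by name from the 20764 genes of the count table, with processed pseudogenes left out. The 192 cells were LSK cells (lineage-negative, Sca-1-positive, cKit-positive), the marrow fraction that holds blood stem cells and multipotent progenitors, from C57BL/6 mice aged 8 to 16 weeks. The labels name no agent, no engineered allele and no control group for these cells. Each was sorted with its antibody and scatter signals recorded, and its messenger RNA was counted with unique molecular identifiers (UMIs) in 1 of 2 library pools of 96 cells.

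Glycolysis splits glucose into pyruvate in the cytosol and yields ATP without oxygen. Lactate dehydrogenase then regenerates the NAD that the pathway needs. Stem cells of the bone marrow are known for a glycolytic metabolism, and the transcription factor HIF-1, which accumulates when oxygen is low, is a known activator of several of these genes. In the LSK fraction a CD150-positive, CD135-negative surface is the usual mark of stem cells, whereas CD135 (the receptor Flt3) marks progenitors that lean to the lymphoid side. Forward scatter of the sorter is a common stand-in for cell size.

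Promoter sequences are shown for the 5 genes that later met the fold rule for at least 1 label, because HIF-1 binds the core ACGTG or GCGTG. Each is the 250 bases before a RefSeq transcription start on GRCm38.p6, printed 5′ to 3′ on the gene's strand. Capitals mark the core on either strand, so that CACGT and CACGC are cores of the other strand and CACGTG holds ACGTG on both strands and counts for 2. Ldha lies at chr7:46841475-46855627 on the plus strand and has 2 listed starts, of which the first is shown. Tpi1 (chr6:124810586-124814296) and Gapdh (chr6:125161715-125166467) lie on the minus strand, and Pgam1 (chr19:41911923-41918660) and Pkm (chr9:59656368-59679375) on the plus strand, all in GENCODE M21.
Ldha chr7:46845554-46845803: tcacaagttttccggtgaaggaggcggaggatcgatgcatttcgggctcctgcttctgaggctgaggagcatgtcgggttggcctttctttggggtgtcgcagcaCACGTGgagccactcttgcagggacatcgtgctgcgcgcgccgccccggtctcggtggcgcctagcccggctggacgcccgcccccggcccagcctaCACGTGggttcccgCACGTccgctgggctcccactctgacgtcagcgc
Tpi1 chr6:124814159-124814408: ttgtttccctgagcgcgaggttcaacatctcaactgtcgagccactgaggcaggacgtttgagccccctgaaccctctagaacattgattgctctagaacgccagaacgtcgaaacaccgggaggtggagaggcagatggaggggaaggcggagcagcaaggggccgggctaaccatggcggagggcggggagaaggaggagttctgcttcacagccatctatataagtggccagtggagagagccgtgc
Gapdh chr6:125165774-125166023: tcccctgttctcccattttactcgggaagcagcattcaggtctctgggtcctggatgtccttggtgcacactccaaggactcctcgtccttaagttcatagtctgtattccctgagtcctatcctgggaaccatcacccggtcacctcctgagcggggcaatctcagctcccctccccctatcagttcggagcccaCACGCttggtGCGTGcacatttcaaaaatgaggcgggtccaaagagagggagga
Pgam1 chr19:41911621-41911870: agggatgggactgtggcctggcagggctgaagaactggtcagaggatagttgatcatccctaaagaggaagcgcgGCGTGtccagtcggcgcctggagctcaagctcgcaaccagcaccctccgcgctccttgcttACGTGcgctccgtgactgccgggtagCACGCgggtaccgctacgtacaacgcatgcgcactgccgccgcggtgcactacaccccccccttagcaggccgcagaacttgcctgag
Pkm chr9:59656326-59656575: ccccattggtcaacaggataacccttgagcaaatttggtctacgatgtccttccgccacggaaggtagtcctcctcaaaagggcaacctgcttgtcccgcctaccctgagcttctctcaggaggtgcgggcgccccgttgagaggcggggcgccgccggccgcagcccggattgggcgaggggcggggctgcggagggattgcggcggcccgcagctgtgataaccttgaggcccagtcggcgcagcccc
The Ldha window held 5 cores, among them 2 CACGTG sites, and that of its second start, chr7:46846832-46847081, held 1 core and no CACGTG. Pgam1 held 3 and Gapdh 2, while Tpi1 and the Pkm window shown held none. The second Pkm start, with its window at chr9:59656977-59657226, held 1. All 10 genes matched a RefSeq promoter, and 12 of their 16 windows, from 8 of the 10 genes, held a core. Of 32851 promoter windows of this length, 38.6% held ACGTG or GCGTG, 16.6% held ACGTG, 28.2% held GCGTG and 6.02% held CACGTG. A match describes letters only.

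After 1 cell with 708 gene UMIs was left out, 191 cells with 3705550 gene UMIs remained, 3927 to 49372 per cell with a median of 17715. The pools were alike in depth, with medians of 17866 and 17404 gene UMIs per cell. All 8 genes of LSK identity were present, led by Lmo2 at 576 and Cd34 at 498 counts per 1000000 gene UMIs (CPM). The 9 lineage markers with a row summed to 88 CPM, and the most abundant were Itgam, Hbb-bt and Csf1r at 26.5, 17.3 and 12.1 CPM. The other 5 markers of the list were not analysed here. No label ties a cell to an animal, and all cells therefore count as 1 biological sample. No test and no p-value is given, and all intervals are 95% intervals of counting error only.

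The 10 enzymes together took 6967 UMIs, which is 0.188% of all gene UMIs or 1881 CPM. Every cell held some: the lowest cell had 292 CPM (3 UMIs), the median cell 1801 and the highest 3376, and the quartiles were 1429 and 2195 CPM. Pool 1 stood at 1778 and pool 2 at 1992 CPM.

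Because CEL-seq2 counts 1 tag near the 3′ end of each molecule, levels of different genes compare molecules without regard to length. Pkm, the pyruvate kinase that makes pyruvate and ATP, was the most abundant at 336 CPM (317 to 355). Ldha, which turns pyruvate into lactate, followed at 243 CPM (228 to 259.6). Next came Aldoa, the aldolase that splits the sugar, at 226 CPM (211 to 242), the isomerase Gpi1 at 221 (206 to 236) and the dehydrogenase Gapdh at 218 (203 to 234). The intervals of Ldha, Aldoa, Gpi1 and Gapdh overlapped, so their order is not resolved by these counts. Pgk1, a kinase that makes ATP, stood at 184 CPM and the mutase Pgam1 at 174, again with overlapping intervals. Eno1, the enolase, was at 142 CPM, and Tpi1, which interconverts the triose phosphates, at 92.3 (82.8 to 103). Pfkl, the phosphofructokinase of the committed step, was lowest at 44 CPM (37.5 to 51.3). Between 56% (Pfkl) and 94.8% (Aldoa) of the cells held at least 1 UMI of a given member.

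The levels of Gapdh, Pgk1 and Eno1 carry a limit of their own, since the table also counts rows whose transcripts are nearly identical to them. At 90% identity or more over at least 200 bases, 109 such rows held 3296 UMIs. Gapdh had 95 copies with 1237 UMIs beside its own 808, Pgk1 had 2 copies with 1376 beside 683, and Eno1 had 2 with 646 beside 526. Copies of the other 7 members held at most 13 UMIs each. The Pgk1 count differed from that of its copy Gm5537 in 23 of 191 cells and was the same in all others, 19 of them with 0 in both, and the totals were 683 and 684. It differed from that of Pgk1-rs7 in 33 cells and Eno1 from Eno1b in 78, whereas Gapdh and Gm2574, its most abundant copy, had the same count in only 26 cells. How reads that match several rows were counted is not given in the sources used here, so the 3 levels may miss molecules or share them with the copies. With the UMIs of their copies added, Gapdh and Pgk1 would each exceed Pkm. Such a sum would count a molecule more than once wherever several rows share it, as the near-equal Pgk1 rows may do. The order of abundance above therefore holds only for the rows as counted.

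**Figure D1:**
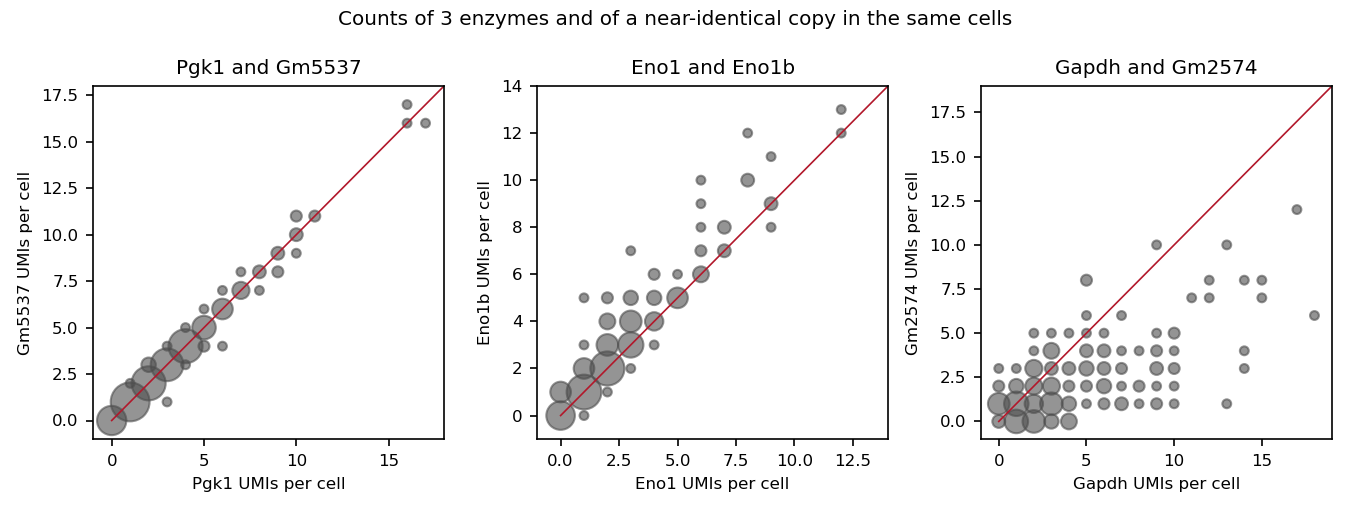
Each panel plots the UMIs of 1 enzyme (horizontal axis) against those of a near-identical copy (vertical axis) in the same cells; the area of a point grows with the number of cells and the line marks equal counts. Pgk1 and Gm5537 lie on or beside the line (unequal in 23 of 191 cells), Eno1b lies on or above Eno1 in most cells, and Gm2574 is mostly below Gapdh.

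Cells differed more in Ldha than in the other members. After each cell was thinned to 12147 UMIs, which left out 19 cells, the variance of Ldha was 2.01 times its mean. The same ratio was 1.69 for Pkm, 1.67 for Gapdh, 1.61 for Pgam1 and 1.05 for Pfkl, the lowest. Over the 3524 genes of similar mean level, the median was 1.31, with quartiles of 1.17 and 1.5. The summed enzymes had a ratio of 2.43. Their mean lies above the range of these genes, so the median of 1.31 is no standard for it.

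For each label value, the cells of a pool were ranked and split into a lower, a middle and an upper class of 32 cells. Ratios below are those of the upper to the lower class, on the log2 scale, from UMIs summed over 63 or 64 cells per class. A gene counts as called when it differed by at least 1.25-fold (0.32 in log2) in the same direction in each pool alone. All 10 members passed the minimum of 100 UMIs over both classes for every label. The 5 labels share cells, since 43 of the 63 cells of the lower cKit class were also in the upper CD135 class, so their results are given side by side.

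The summed level varied little with the surface proteins and most with forward scatter. By CD135 it was 1866 CPM in the lower, 1970.1 in the middle and 1804 in the upper class, a log2 ratio of -0.05 (-0.13 to 0.04), and the pools went opposite ways at -0.23 and 0.13. By CD150 it was 1818, 1869 and 1939.8 CPM, a ratio of 0.09 (0.01 to 0.18), with 0.19 in pool 1 and 0.01 in pool 2. By Sca-1 it was 1816, 1943 and 1887 CPM, a ratio of 0.06 (-0.03 to 0.14). By cKit it was 1749, 1885 and 1981 CPM, a ratio of 0.18 (0.10 to 0.26), with 0.29 in pool 1 and 0.07 in pool 2. None of these shifts exceeded the spread between single cells, which overlapped throughout.

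**Figure D2:**
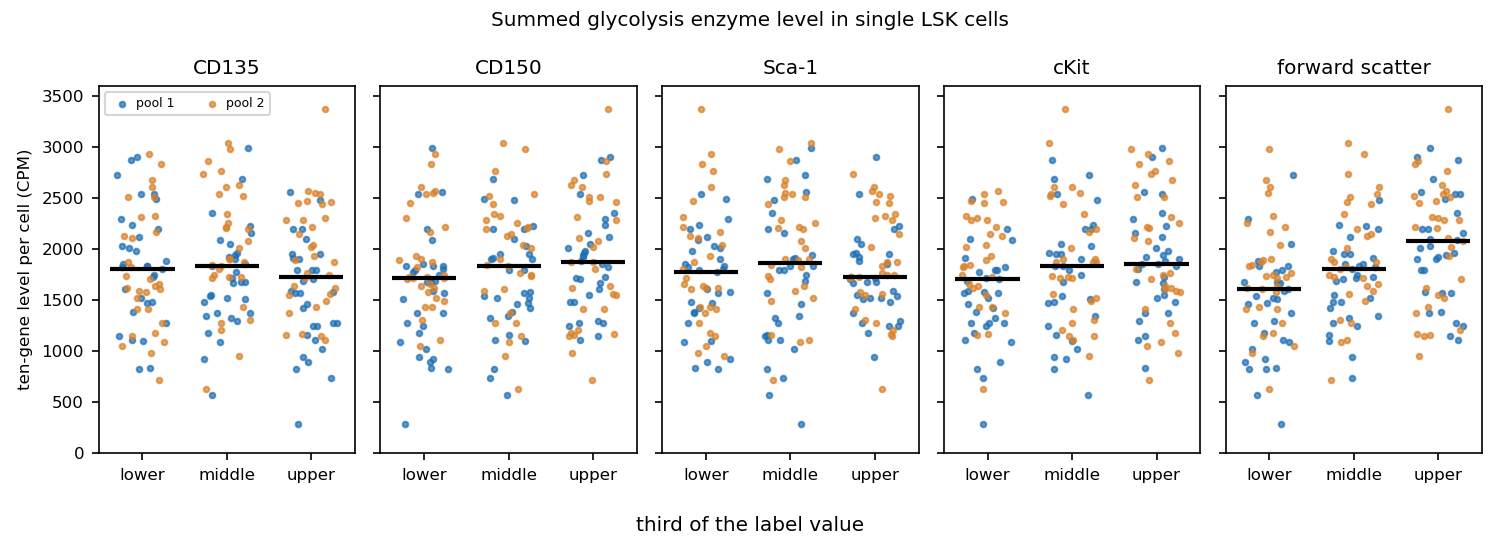
Each point is 1 cell, with its summed level of the 10 enzymes in CPM on the vertical axis and its class for the 5 label values on the horizontal axis; colours are the library pools and black lines the medians. The classes overlap for every label, and the widest step between medians is by forward scatter, from 1615 over 1805 to 2086 CPM.

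Large cells had the higher summed level. By forward scatter, the lower class held cells from 292 to 2986 CPM with a median of 1615, the middle class cells from 722 to 3041 with a median of 1805, and the upper class cells from 955 to 3376 with a median of 2086. The summed UMIs gave 1641, 1837 and 2062 CPM and a log2 ratio of 0.33 (0.24 to 0.42). Both pools showed the direction, at 0.46 and 0.23. Of the members, 9 were above 0 and 1 below, and the median over the members was 0.41, against -0.01 over all 4409 genes tested. Of the 10 members 3 were called higher, with 11.1% of all genes tested called higher and 10.4% called lower. Among the 1027 genes with at least 400 UMIs, 9.64% were called higher.

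Tpi1, Gapdh and Pgam1 were those 3. Tpi1 stood at 67.5 CPM in the lower, 86.3 in the middle and 112 in the upper class (single cells 0, 60.9 and 341 in the lower and 0, 84.8 and 456 in the upper class, as lowest, median and highest). Its ratio was 0.73 (0.32 to 1.16), with 0.64 and 0.80 in the pools. Gapdh stood at 169, 200.1 and 262 CPM, and its single cells ran from 0 over 129 to 479 in the lower and from 0 over 246 to 716 in the upper class. The ratio of Gapdh was 0.63 (0.37 to 0.90), with 0.75 and 0.62 in the pools. Within single classes of the surface proteins it ran from 0.12 (lower CD135 class) to 1.34 (upper Sca-1 class), and per spike-in UMI it was 1.38. Pgam1 stood at 141, 163 and 202 CPM, a ratio of 0.51 (0.22 to 0.81). For all 3 the single cells of the end classes overlapped.

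Other members were higher in large cells by less, or in 1 pool. Gpi1 gave 177, 230.3 and 241 CPM, a ratio of 0.45 (0.18 to 0.71) with 0.87 in pool 1 and 0.23 in pool 2. Ldha gave 209, 223 and 279 CPM, a ratio of 0.42 (0.18 to 0.67). The ATP-making steps had ratios of 0.40 for Pgk1 (0.12 to 0.68) and 0.20 for Pkm (-0.00 to 0.41), and Eno1 had 0.33 (0.02 to 0.65). Pfkl was at 0.04 (-0.55 to 0.64), an interval too wide to tell its direction. Aldoa was the exception, at 240.4, 254 and 198 CPM with a ratio of -0.28 (-0.53 to -0.03). The 4 enzymes before Gapdh, summed, had a ratio of 0.17 (0.02 to 0.33), with 0.32 and 0.06 in the pools. The 5 from Gapdh to Pkm had 0.39 (0.28 to 0.51), with 0.51 and 0.31. The first sum joins Aldoa at -0.28 with Gpi1 at 0.45 and Tpi1 at 0.73, so it does not describe each early step.

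Transcripts of dividing cells and the depth per cell were also highest in the upper class. All 14 tested S phase genes of 18 were called higher there. Their summed level ran from 249 over 839.9 to 4024 CPM in cells of the lower class and from 510.1 over 2650.4 to 6337 in cells of the upper class. Of the 20 G2/M genes, 5 of the 7 tested were called higher, and the summed level was 449 CPM in the lower and 1374 in the upper class. Of the 12 stem cell genes, 5 of the 7 tested were called lower, with 2297 against 1399.7 CPM. None of the genes of these 3 lists was at 0 over all cells. Median gene UMIs per cell were 15329, 18074 and 22426, and gene UMIs per spike-in UMI were 23.5, 28.6 and 39.5. Per spike-in UMI, the ratio of the summed enzymes was 1.08. Their part in the result was not tested. The upper class also held 11 of the cells with a CD127 signal above 2000 and the lower class 2, and without them the ratio of the summed enzymes was 0.35.

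**Figure D3:**
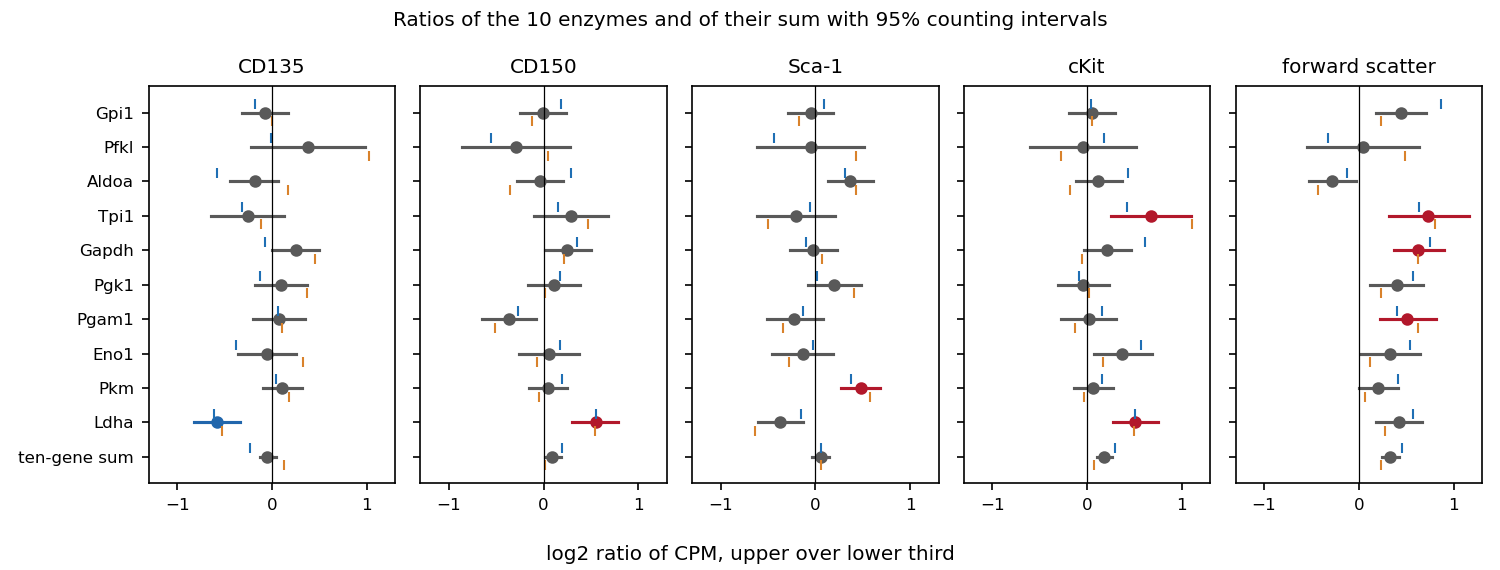
Circles give the log2 ratio of CPM between the upper and the lower class for each enzyme and for their sum, lines the 95% counting interval, and ticks the ratio in pool 1 (above, blue) and pool 2 (below, orange); red and blue circles met the fold rule in both pools. Ldha is at -0.58 by CD135 and 0.55 by CD150, Pkm at 0.48 by Sca-1, and 9 of the 10 enzymes are right of 0 by forward scatter.

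Ldha was the member called for the most surface proteins, CD135, CD150 and cKit. By CD135 its level was 288 CPM in the lower, 245 in the middle and 193 in the upper class. Single cells ran from 0 over 229.6 to 688 CPM in the lower class and from 0 over 147 to 609.5 in the upper class, so the classes overlapped while the median was lower at high CD135. The ratio was -0.58 (-0.82 to -0.34), with 301 against 196 CPM in pool 1 and 274 against 189.7 in pool 2. It was the only member called lower by CD135 and none was called higher, with 10% of the 4323 genes tested called lower and 7.66% higher. As a count, 1 of 10 members is no more than that share of all genes. Among the 974 genes with at least 400 UMIs, 4.52% were called lower. The other 9 members ran from -0.25 (Tpi1) to 0.38 (Pfkl), and the median over all 10 was 0.01. Ldha made up 15.4% (14 to 16.9, exact binomial) of the ten-gene UMIs at low, 12.5% at middle and 10.7% (9.43 to 12.1) at high CD135.

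By CD150 the order turned round. Ldha stood at 198, 231 and 289.5 CPM, and single cells ran from 0 over 154.6 to 512 CPM in the lower and from 0 over 239 to 688 in the upper class. The ratio was 0.55 (0.30 to 0.79), with 0.55 and 0.54 in the pools. It was the only member called higher and none was called lower, with 7.05% of the 4367 genes tested called higher and 5.61% lower. That count of 1 in 10 members is near the share of all genes called higher. Among the 988 genes with at least 400 UMIs, 3.85% were called higher. Pgam1 lay on the other side at 185, 198 and 143 CPM, a ratio of -0.37 (-0.65 to -0.08) that missed the fold rule in pool 1 at -0.27. The remaining 8 members ran from -0.29 (Pfkl) to 0.29 (Tpi1).

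By cKit, Ldha and Tpi1 were called higher and no member lower, with 8.68% of the 4402 genes tested called higher and 6.22% lower. Of the 1012 genes with at least 400 UMIs, a level that Tpi1 did not reach, 3.75% were called higher. Ldha stood at 206, 220.0 and 293 CPM, a ratio of 0.51 (0.27 to 0.75) with 0.51 and 0.50 in the pools. Its single cells ran from 0 over 173 to 512 CPM in the lower and from 0 over 224 to 688 in the upper class. Tpi1 stood at 63.2, 110.4 and 100.4 CPM, so that the middle and upper classes were alike. Its ratio was 0.67 (0.25 to 1.10), with 0.42 in pool 1 and 1.11 in pool 2. Within the forward scatter classes that ratio was 0.07, 1.25 and 0.67 from small to large cells. Cells with a CD127 signal above 2000 made up 12 of the 63 cells of the lower and 0 of the 64 of the upper cKit class; without them the ratio was 0.61 for Ldha and 0.80 for Tpi1. Eno1 had 128.2, 126.5 and 165.9 CPM, a ratio of 0.37 (0.07 to 0.68) that was 0.17 in pool 2.

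Among cells of like size the Ldha ratios had the same signs, but some counting intervals held 0. These intervals leave out the spread between cells. From the lower to the upper forward scatter class, the ratio by CD135 was -0.61 (-1.19 to -0.05), -0.35 (-0.83 to 0.12) and -0.79 (-1.13 to -0.46). By CD150 it was 0.73 (0.25 to 1.21), 0.33 (-0.15 to 0.81) and 0.38 (0.01 to 0.76). By cKit it was 0.47 (-0.03 to 0.99), 0.21 (-0.31 to 0.73) and 0.65 (0.34 to 0.98). One cell held 33 Ldha UMIs, 3.66% of the total, and without it the ratios were -0.50, 0.47 and 0.44.

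**Figure D4:**
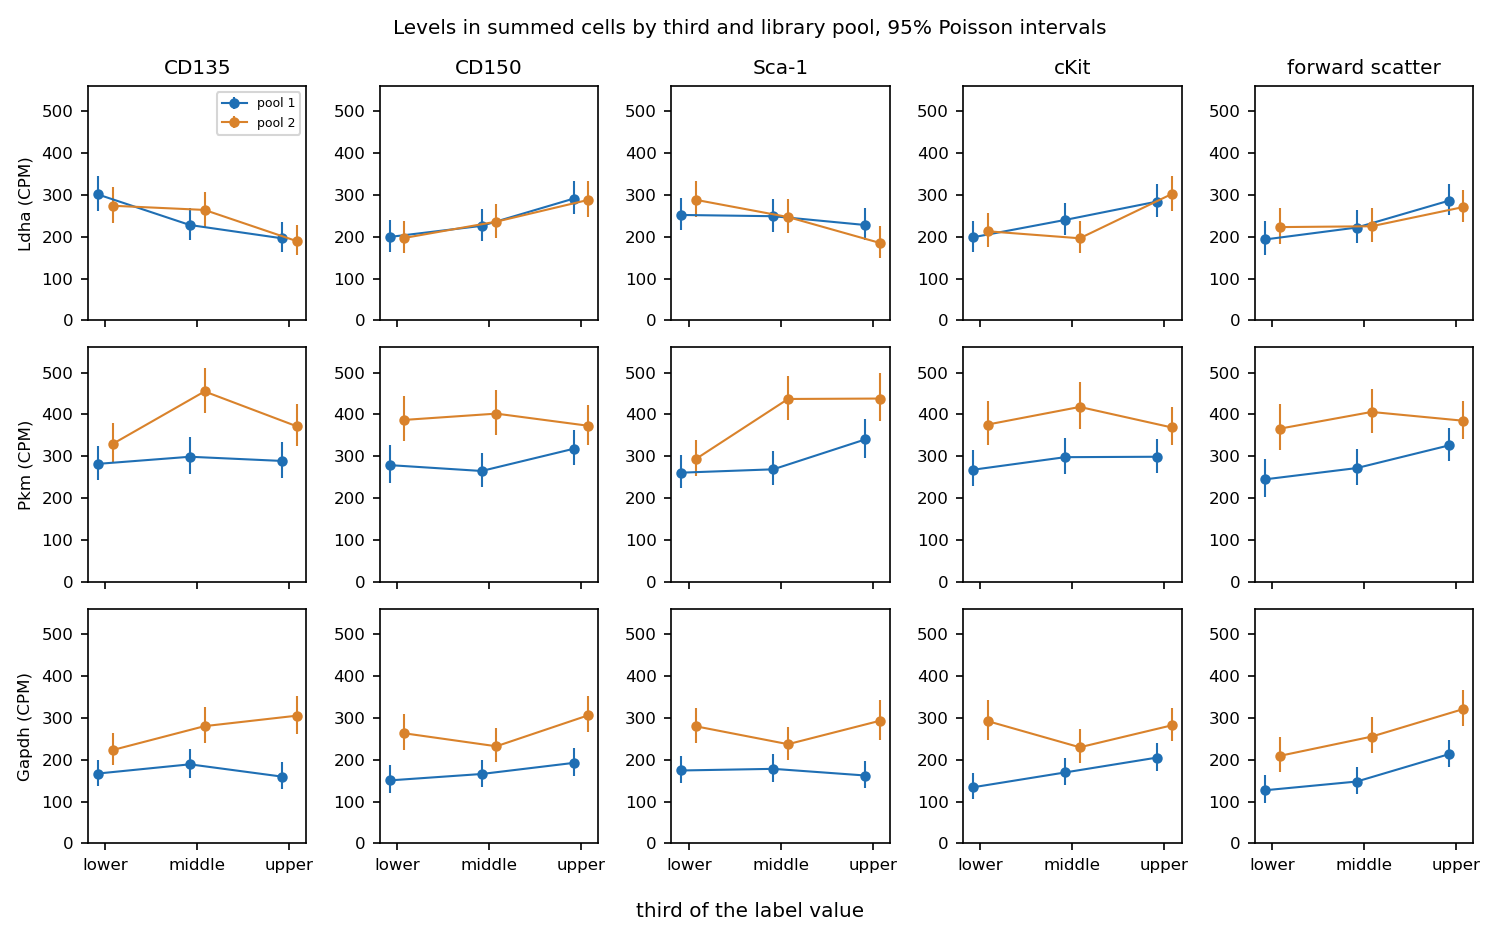
Levels in CPM of Ldha, Pkm and Gapdh (rows) in the lower, middle and upper class of each label value (columns), by library pool, with exact Poisson 95% intervals. Both pools place Ldha lower at high CD135 and higher at high CD150, cKit and forward scatter; Pkm and Gapdh were lower throughout in pool 1, at 289 and 172 CPM over all its cells, than in pool 2, at 386 and 269.

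Genes of other cell states differed along the same proteins. All 9 tested lymphoid priming genes of 12 were called higher at high CD135. One of them is Flt3, which encodes CD135 and so restates the label. Their summed level ran from 198 over 836 to 2596 CPM in cells of the lower and from 1060.2 over 3405 to 8738 in cells of the upper class. Of the stem cell genes 4 of 7 were called lower, with 2101 CPM in the lower and 1404 in the upper class. Of the erythroid genes 2 of 3 tested were called lower (1836 against 575 CPM), and of the G2/M genes 4 of 7 (1077 against 706 CPM). The erythroid sum of the median cell was 1002 in the lower and 554 CPM in the upper class, and of the highest cell 9688 and 2502. For G2/M the median cell was at 289 and 203 CPM and the highest at 10651 and 5277. No gene of these 4 lists was at 0 over all cells. The S phase sum was 2059 against 1917 CPM. By CD150 5 of 8 lymphoid priming genes were called lower (2374 against 1600.1 CPM), and 5 of 11 S phase genes (1666 against 2228 CPM) higher. All 4 tested G2/M genes of 20 were called higher by CD150, but while their class sum was 429 against 1215 CPM, the median cell was at 193.8 in the lower and 219 in the upper class and the highest cell at 4775 and 10651. By cKit all 8 tested lymphoid priming genes were called lower, their sum running from 198 over 3279.7 to 8738 CPM in cells of the lower and from 405 over 972 to 3023 in cells of the upper class, and 5 of 7 stem cell and 5 of 7 G2/M genes higher. Depth also differed. Median gene UMIs per cell were 18031, 17426 and 17227 over the CD135 classes and 16065, 18193 and 19396 over the CD150 classes. Over the cKit classes they were 16051, 17363 and 20480. Across cells, Spearman's rho of Ldha, averaged over the pools, was 0.37 with gene UMIs and 0.22 with forward scatter. With the proteins it was -0.19 for CD135, 0.20 for CD150 and 0.18 for cKit. The part of these genes and of depth in the Ldha results was not tested.

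Gates that combine both proteins separated Ldha further. They were drawn by rank within each pool, are not the sort regions of the study and differ from the classes above. CD150-high and CD135-high mean the 24 highest cells of a pool, the CD135-high gate leaves out cells that are also CD150-high, and CD135-low means below the median of the pool. The CD150-high CD135-low gate, nearest to the usual stem cell surface, held 33 cells with Ldha at 368 CPM (327 to 413). The 62 CD135-low cells that were not CD150-high stood at 212 CPM (186 to 241) and the 40 CD135-high cells at 177 (148 to 209.7). Single cells had medians of 292, 179 and 123 CPM and highest values of 688, 477 and 512, and each gate held cells at 0. The log2 ratio of the first gate to the CD135-high gate was 1.06 (0.76 to 1.37), with 1.07 and 1.04 in the pools. To the middle gate it was 0.79 (0.54 to 1.05), with 0.85 and 0.73, but 0.11 among cells of the middle forward scatter class. The ratio of the middle to the CD135-high gate was 0.26 (-0.05 to 0.58), an interval that held 0, with 0.22 and 0.30 in the pools.

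Of the first gate to either of the others, no other enzyme had a ratio as large as that of Ldha. The sum of all 10 was 2021, 1809 and 1710.2 CPM, and its ratio of the first to the last gate was 0.45 in pool 1 and -0.02 in pool 2. Pkm stood at 343, 337 and 329 CPM, with a ratio of 0.06 (-0.20 to 0.31). Between these 2 gates the 8 members besides Ldha and Pkm had ratios from -0.46 (Pfkl, -1.24 to 0.30) to 0.47 (Tpi1, -0.02 to 0.97), all with intervals that held 0. Of the first to the middle gate, Tpi1 had a ratio of 0.48 (0.03 to 0.92), with 0.49 and 0.39 in the pools. Aldoa had a ratio of 0.32 (0.02 to 0.62) of the middle to the last gate, with 0.57 and 0.04 in the pools. Ldha made up 18.2% (16.3 to 20.2) of the ten-gene UMIs in the first gate, 11.7% in the second and 10.3% (8.71 to 12.1) in the last. The S phase sums were 2452, 1878 and 1780.4 CPM, the G2/M sums 996, 939.9 and 522, and the median gene UMIs 20889, 16500 and 17222. Their part in the result was not tested.

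**Figure D5:**
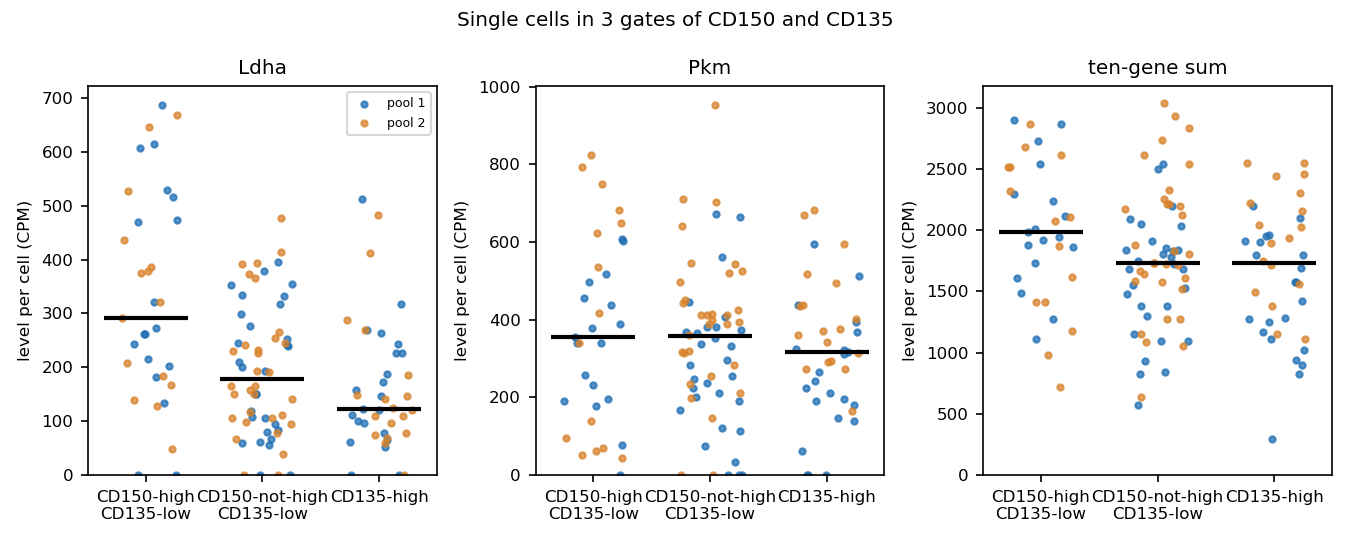
Each point is 1 cell in 1 of 3 gates of CD150 and CD135 rank, with its level in CPM on the vertical axis for Ldha, Pkm and the summed 10 enzymes; colours are the pools and black lines the medians. The Ldha medians are 292, 179 and 123 CPM, and the counting interval of the ratio of the middle to the CD135-high gate held 0. The medians of Pkm are 356, 358 and 315.

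By Sca-1 it was Pkm that met the rule, and Ldha pointed the other way. Pkm stood at 277, 352 and 385 CPM, with single cells from 0 over 283 to 702 in the lower and from 0 over 349 to 954 in the upper class. The ratio was 0.48 (0.27 to 0.68), with 0.38 and 0.58 in the pools. No other member was called in either direction, with 8.15% of the 4283 genes tested called higher and 7.63% lower. So 1 of 10 members called higher is near the share of all genes. Among the 973 genes with at least 400 UMIs, 5.34% were called higher. Aldoa came next at 205, 214 and 265 CPM, a ratio of 0.37 (0.13 to 0.61) that missed the rule in pool 1 at 0.31 and met it in pool 2 at 0.43. Ldha stood at 269, 248 and 208 CPM, a ratio of -0.37 (-0.61 to -0.13) with -0.15 in pool 1 and -0.64 in pool 2. The Pkm ratio was 1.02, 0.25 and 0.35 from the lower to the upper forward scatter class, and 0.19 per spike-in UMI. All 7 tested stem cell genes were called higher with Sca-1 (1145 against 2676 CPM) and 5 of 12 tested S phase genes lower (2279 against 1751 CPM), and their part in the result was not tested. Total Pkm was counted, and the PKM1 and PKM2 splice forms were not told apart here.

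Around the 10 enzymes, the genes that bring glucose in were sparse. The glucose entry list summed to 243 CPM, led by the hexokinases Hk1 (86.1 CPM) and Hk3 (47.2) and the transporter Slc2a3 (42.6), while the transporter Slc2a1 held 34 UMIs. By cKit 2 of the 3 tested genes of this list were called higher. Hk1 was at 63.2 CPM in the lower and 112 in the upper class, a ratio of 0.82 (0.41 to 1.25), and Hk3 at 20.5 and 63.4 CPM, a ratio of 1.63 (0.95 to 2.36). By CD135 1 of 2 was called lower, Hk1 at 103 against 68.3 CPM (-0.60, -1.01 to -0.19). None of the list was called by CD150, Sca-1 or forward scatter.

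Other isozymes of the 10 steps were minor, at 124 CPM over the 11 genes with a row, and none reached 100 UMIs over both end classes for any label. Ldhb, the lactate dehydrogenase chain that favours pyruvate, stood at 33.7 CPM, and Pfkm at 25.1. Ldhc, the testis form, held 63 UMIs, of which 76.2% were in 1 cell that had 3 Ldha UMIs. The enzymes that set fructose 2,6-bisphosphate, which activates phosphofructokinase, summed to 60.7 CPM, led by Pfkfb3 at 31.3, and none was tested for any label.

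Genes at the fate of pyruvate and lactate went different ways. Of 5 tested by CD135, Pdk1, the kinase that restrains pyruvate dehydrogenase, was called higher (57.1 against 84.9 CPM, ratio 0.57, 0.12 to 1.03), and 2 were called lower. One of those, Bsg, the chaperone of the lactate transporters, was at 99.4 against 70.8 CPM (-0.49, -0.90 to -0.08). Bsg was the 1 gene of 5 called higher by CD150, at 77.3 against 99.6 CPM, although its interval held 0 (0.37, -0.03 to 0.77). Pdha1 and Pdk1 were the 2 of 6 called higher by Sca-1, and Pdk1 stood at 56.6 against 92.0 CPM there (0.70, 0.26 to 1.15). By forward scatter Pdk1 was the 1 of 5 called lower, at 106 against 54.2 CPM (-0.97, -1.40 to -0.55), and by cKit none of 5 was called.

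Few genes of the hypoxia response reached the minimum, and only Hif1a and Egln1 were tested. Hif1a, the oxygen-regulated subunit of HIF-1, was at 61.9 CPM in the lower and 40.8 in the upper CD150 class (-0.60, -1.13 to -0.07), called lower. Egln1, the prolyl hydroxylase that marks it for breakdown, was called higher by CD135 (0.72, 0.18 to 1.28) and lower by cKit (-0.83, -1.34 to -0.32). Neither was called by Sca-1 or forward scatter.

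Citrate cycle genes, whose enzymes oxidise acetyl groups in mitochondria, were near their overall level in cells of every size. Of the 16 tested citrate cycle genes, led by Idh2, Sdha and Idh3g, none was called by forward scatter in either direction, and their median ratio was 0.08. They summed to 1474, 1464 and 1562 CPM over its classes. By Sca-1 4 of the 16 were called lower, by CD135 3 lower, by CD150 1 higher and by cKit 1 lower. In the pentose phosphate pathway, which branches off at glucose 6-phosphate, Pgls was the 1 of 4 called higher by forward scatter (0.75, 0.33 to 1.18). By Sca-1 3 of 4 were called lower, with Pgls at -0.79 (-1.18 to -0.41), Tkt at -0.54 (-0.81 to -0.27) and Taldo1 at -0.51 (-0.81 to -0.22), beside the higher Pkm. By CD150 1 of 3, Tkt, was called lower (-0.45, -0.72 to -0.17), and none was called by CD135 or cKit.

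From cell to cell the 10 enzymes were only loosely tied. Spearman's rho, taken in each pool and averaged, ran from -0.08 to 0.30 over the 45 pairs of members, with a median of 0.11 and 42 pairs above 0. The highest pairs were Gapdh with Eno1 (0.30), Tpi1 with Ldha (0.25) and Gapdh with Ldha (0.22). Low counts per cell limit such values, and depth is shared by all of them: the summed CPM had a rho of 0.41 with the gene UMIs of the cell. With the labels, rho of the sum was 0.33 for forward scatter, 0.20 for cKit, 0.14 for CD150, -0.03 for Sca-1 and -0.07 for CD135 (191 cells). Each is a description of these cells.

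Outside the members, the genes most like the sum were ranked by the same rho over 3875 genes, whose median was 0.03. They were Eno1b (0.50, the copy described above), the tubulin Tuba1b (0.48), Ptma (0.46), the chaperone Hsp90aa1 (0.46), the transport GTPase Ran (0.45), Cdca7 (0.44), the translation factor Eif5a (0.44), the prolyl isomerase Ppia (0.44), Fkbp4 (0.43) and Mif (0.41). All 10 had a forward scatter ratio above 0, from 0.18 (Eno1b) to 1.49 (Tuba1b). Among the least alike were Crebbp (-0.28), Ifi203, Rock1 and Txnip (each -0.27), with forward scatter ratios from -0.31 (Rock1) to -1.07 (Txnip, which restrains glucose uptake).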

How the data were processed

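The cells were cKit-enriched marrow cells sorted singly into 384-well plates, and the libraries follow a modified CEL-seq2 method whose 96 primers hold an 8-base cell index and a 6-base UMI, per the labels' protocols. Both pools use the same 96 indexes. The authors deposited unnormalized UMI counts. No source used here names the aligner or the counting rules. The submitters' processing notes name GRCh38, a human build, although the gene identifiers are those of mouse Ensembl; symbols and coordinates came from GENCODE M21 on GRCm38, by identifier, and promoters from RefSeq on GRCm38.p6.

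A cell entered with at least 20% of the median gene UMIs of its pool. UMIs were summed per class and divided by the gene UMIs of the class, without the 71 spike-ins. Ratios have exact conditional binomial, sums exact Poisson and shares exact Clopper-Pearson intervals (scipy 1.17.1, pandas 2.3.3, Python 3.11.15). No doublets were called, since wells received single cells. The fold rule was run on simulated Poisson counts without added variation between cells or pools, so they cannot give its rate of false calls in these data. All members are named; other lists are given by their counts of called genes and up to 3 genes with the most UMIs. The likeness rule took genes found in at least 50% of the cells, without predicted models, pseudogenes and ribosomal protein genes. Other genes named (Slc2a1 and single called genes) were chosen after their values were seen. One gene that the likeness rule picked is not reported here. The members, lists and rules were chosen with earlier results of these data known. Alternatives changed the scaling, the filter, the classes, the pool, the members summed and the fold.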

Additional observations from a re-analysis of the deposited data

Results flagged for a closer look

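The 109 rows that are near-identical copies of the members held 3296 UMIs in the 191 cells. These rows are part of the gene UMI totals but not of the levels of the members. Whether they count molecules apart from those of the members is not known. Of these UMIs, 1376 belong to 2 copies of Pgk1, 1237 to 95 copies of Gapdh and 646 to 2 copies of Eno1. The summed copies had a log2 ratio of 0.44 (0.31 to 0.56) by forward scatter, and -0.04 by CD135, 0.10 by CD150, 0.01 by Sca-1 and 0.09 by cKit, with the last 4 intervals holding 0.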

How the results depend on the processing

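No paired analysis was possible because the labels give 1 group and no animal. The values of the sum, the gates and the counts of called members were followed under the alternatives. Of these, 124 stayed within their counting interval or within 1.5 times the count, and 30 moved. The sum was called for no label. Its ratio lay above 0 in 2 and below 0 in 14 settings by CD135, in 15 and 1 by CD150, and in 13 and 3 by Sca-1. By cKit and forward scatter it lay above 0 in all settings. Among the ratios of single members, 106 moved and 658 did not, and the sign of no called member turned. The pool alternatives could not turn it, since the fold rule requires the same direction in each pool. The 30 moved values follow, and the cause of each move was not tested. The ratio of the sum by CD135 was -0.23 in pool 1, 0.13 in pool 2, -0.16 within the upper forward scatter class and -0.14 without Aldoa, Gapdh, Eno1 and Pkm. By CD150 it was 0.39 per spike-in UMI, 0.19 and 0.01 in the pools, and -0.09 within the upper forward scatter class. By Sca-1 it was -0.23 per spike-in UMI, 0.15 within the lower forward scatter class and -0.13 without the 4 genes. By cKit it was 0.46 per spike-in UMI and 0.29 and 0.07 in the pools. By forward scatter it was 1.08 per spike-in UMI, 0.46 and 0.23 in the pools, 0.45 without the 4 genes, 0.44 and 0.16 within the lower and middle Sca-1 classes, and 0.51 and 0.20 within the lower and middle CD150 classes; the splits by Sca-1 and CD150 were chosen after seeing the data, as were those without the cell with the most UMIs, the copies and the genes with at least 400 UMIs. The first gate stood 0.46 above the CD135-high gate and 0.47 above the middle gate per spike-in UMI. With 1.5-fold required in each pool, the members called by CD135, CD150, Sca-1 and cKit numbered 0. By Sca-1 2 were called higher with Gm42418, Camk1d and Gm26384 left out of the total, and 1 lower with the 24 highest and 24 lowest cells per pool. Over all 13 alternatives the Ldha ratio ran from -0.79 to -0.35 by CD135, 0.33 to 0.84 by CD150 and 0.21 to 0.78 by cKit. Pfkl, with 163 UMIs, had intervals too wide to give a direction for any label.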
